A study of Mus musculus with 15 samples.

Results

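In a mouse stem cell line with a degron knocked in at NSD1, 10 genes set the line apart from wild-type cells, and their levels were followed through the 5 groups of the study: Prps2, Pdzd4, Msc, Smoc1, Bcam, Kifc3, Galnt7, Cdca7l, Meis2 and Myrf. They are 10 of 55471 gene IDs in the count tables, of which 31165 had a count in any library. The genes were chosen by their RNA levels in nontreated NSD1-dTAG and wild-type embryonic stem cells, which differed clearly, with imprinted and germline genes set aside. That difference is therefore a description here and carries no test. All 10 genes passed the filter on low counts in every comparison.

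Poly(A) RNA was sequenced from E14 mouse embryonic stem cells (mESCs), and from embryoid bodies (EBs), aggregates of stem cells that differentiate in suspension. All mESCs were grown on gelatin in 2i/LIF medium, which keeps them undifferentiated by blocking the kinases MEK and GSK3 and supplying the cytokine LIF. The 5 groups had 3 libraries each. For mESCs they were wild-type cells without treatment, wild-type cells given 500 nM dTAG-13 for 72 h, and nontreated NSD1-dTAG knock-in cells. For EBs they were day 6 NSD1-dTAG EBs without compound and day 6 NSD1-dTAG EBs given 500 nM dTAG-13. EBs were grown in a medium with serum and without 2i/LIF. dTAG-13 is a small molecule that brings a degron-tagged protein to the cereblon ubiquitin ligase, and NSD1 is a methyltransferase for lysine 36 of histone H3. The labels name 1 knock-in genotype and do not say how many clones it stands for, so the tag and the history of the line cannot be told apart. No libraries of wild-type EBs or of NSD1-dTAG mESCs given dTAG-13 are described here. Within a group the libraries are labelled biological replicates with no further detail, so p-values measure the spread between these libraries.

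The 10 genes belong to no single pathway. Prps2 encodes a synthetase of phosphoribosyl pyrophosphate, the sugar phosphate from which nucleotides are built, and Cdca7l encodes a zinc finger protein of the CDCA7 family, known as a partner of Myc. Galnt7 encodes an enzyme that starts or extends O-linked sugars on proteins in the Golgi, Bcam a receptor of the cell surface for laminin alpha-5, and Smoc1 a secreted calcium-binding protein of the extracellular matrix. Kifc3 encodes a kinesin that walks toward the minus ends of microtubules and is known at adherens junctions, and Pdzd4 a protein with a PDZ domain. Msc (musculin) encodes a basic helix-loop-helix repressor of the muscle lineage, Meis2 a homeodomain factor that pairs with PBX proteins, and Myrf a membrane-bound transcription factor known from oligodendrocytes.

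Gene counts per library ranged from 18704591 to 29103958. In each group 1 library stood apart with the shortest read-weighted exon length, namely library 1 of wild-type nontreated mESCs (5.43 kb) and of NSD1-dTAG mESCs (4.99 kb), and library 3 of the other groups (5.25 kb to 5.50 kb). Nsd1 mRNA, at group means of 227 to 372 CPM (each library's counts scaled to the same total), was not called different in any comparison, and the protein was not measured. Pluripotency markers (10 genes, Pou5f1 and Sox2 among them) summed to 4969 to 5110 CPM in the wild-type mESC libraries. The sums were 5522 to 5654 CPM in NSD1-dTAG mESCs and 1343 to 1797 CPM in EBs. Much of the EB sums came from Pou5f1 (means of 659 CPM without and 611 CPM with dTAG-13) and Sox2 (338 and 345 CPM). In the mESC libraries 8 markers of extraembryonic endoderm summed to at most 3.12 CPM and 8 fibroblast markers to at most 1.48 CPM, with Col3a1, Lum, Dcn, Postn and Acta2 at 0 counts. Below, CPM are scaled with TMM factors over all 15 libraries, and libraries are given in the order 1, 2, 3. A gene was called at an adjusted p under 0.05 in edgeR's quasi-likelihood test with Benjamini-Hochberg adjustment over all genes tested. Differences are given in log2 units, each with its standard error (SE) from the fit.

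The genes lie on 7 chromosomes of GRCm38 and form no cluster. Prps2 (ENSMUSG00000025742.5, chromosome X, 167346322 to 167382749, minus strand) and Pdzd4 (ENSMUSG00000002006.12, chromosome X, 73793359 to 73824969, minus strand) are 93.5 Mb apart. Kifc3 (ENSMUSG00000031788.14, chromosome 8, 95099828 to 95202812, minus strand) and Galnt7 (ENSMUSG00000031608.13, chromosome 8, 57523828 to 57653032, minus strand) are 37.4 Mb apart. Smoc1 (ENSMUSG00000021136.13, chromosome 12, 81026808 to 81186414, plus strand) and Cdca7l (ENSMUSG00000021175.15, chromosome 12, 117804289 to 117878706, plus strand) are 36.6 Mb apart. The other genes have a chromosome to themselves: Msc (ENSMUSG00000025930.6, chromosome 1, 14753346 to 14755992), Meis2 (ENSMUSG00000027210.20, chromosome 2, 115863064 to 116065839), Bcam (ENSMUSG00000002980.14, chromosome 7, 19756131 to 19771016) and Myrf (ENSMUSG00000036098.15, chromosome 19, 10208272 to 10240748), all on the minus strand. All 10 are protein coding, with exons that add up to between 2546 bases (Msc) and 12043 bases (Meis2).

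RefSeq promoter sequences matched 6 of the 10 symbols (Prps2, Pdzd4, Bcam, Galnt7, Cdca7l and Meis2). The 250 bases before the RefSeq start are printed for Prps2, Pdzd4 and Galnt7, because these genes were lower in the knock-in mESCs, rose in EBs, and have a RefSeq start at or just before the end of the annotated gene, while the starts of the other genes lie inside it. Each is from RefSeq on GRCm38.p6, minus strand, 5′ to 3′ along the gene: Prps2 from chrX:167382750-167382999, Pdzd4 from chrX:73824970-73825219 and Galnt7 from chr8:57653056-57653305. Capitals mark CpG dinucleotides, the sites at which mammalian promoters are methylated.
Prps2: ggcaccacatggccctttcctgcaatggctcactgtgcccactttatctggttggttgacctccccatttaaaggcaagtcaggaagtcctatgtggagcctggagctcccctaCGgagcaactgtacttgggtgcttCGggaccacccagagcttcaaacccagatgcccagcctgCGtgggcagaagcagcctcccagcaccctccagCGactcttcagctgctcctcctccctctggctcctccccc
Pdzd4: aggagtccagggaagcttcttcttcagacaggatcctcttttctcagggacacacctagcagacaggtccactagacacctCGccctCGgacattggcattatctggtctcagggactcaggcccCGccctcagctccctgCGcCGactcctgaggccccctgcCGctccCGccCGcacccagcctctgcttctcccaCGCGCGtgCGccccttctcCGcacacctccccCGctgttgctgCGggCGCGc
Galnt7: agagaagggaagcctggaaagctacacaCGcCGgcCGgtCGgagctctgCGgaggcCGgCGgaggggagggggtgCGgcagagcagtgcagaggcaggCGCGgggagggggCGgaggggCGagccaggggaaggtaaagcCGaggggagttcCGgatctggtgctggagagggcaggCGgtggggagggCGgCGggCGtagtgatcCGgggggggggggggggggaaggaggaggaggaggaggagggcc

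The promoters differed in their number of CpG. Their GC content, at 60% (Prps2) to 73.6% (Galnt7) except in Meis2 (47.6%), compares with a median of 52.4% over all RefSeq entries. Prps2 held 4 CpG in its 250 bases, Pdzd4 17 and Galnt7 19. Among the genes not printed, Bcam held 22, Cdca7l 38 and Meis2 7, against a median of 6 over 32851 RefSeq entries. At least as many CpG were found in 62.2% of entries for Prps2, in 23.5% for Pdzd4, in 19.7% for Galnt7 and in 1.88% for Cdca7l. The letters TGACAG, a core recognised by MEIS proteins, were in none of the 6 windows on either strand and in 15.9% of all entries. The palindrome CAGCTG, a form of the E-box read by helix-loop-helix proteins, was in the Prps2 window once, and 13.001% of all entries held it. A match or its absence describes these letters in these windows only.

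In nontreated mESCs, 7 genes were lower in the knock-in line than in wild-type cells and 3 were higher. For the gene of nucleotide synthesis, Prps2, wild-type libraries had 41.4, 45.3 and 44.3 CPM and knock-in libraries 12.6, 12.8 and 15.2 CPM. In wild-type mESCs given dTAG-13 it was at 42.3, 44.8 and 39.0 CPM. EB libraries of Prps2 were at 50.2, 53.1 and 77.0 CPM without it and at 64.8, 79.7 and 59.4 CPM with it. Prps2 was lowest in the knock-in mESCs, whose libraries overlapped those of none of the other 4 groups. The log2 difference between the lines was -1.70 (SE 0.11). Cdca7l showed a like order at a smaller size, with 26.3, 29.0 and 26.9 CPM in wild-type mESCs and 14.1, 12.2 and 13.2 CPM in the knock-in line, a difference of -1.07 (SE 0.09). With dTAG-13 wild-type cells had 27.5, 30.0 and 27.0 CPM. EBs had 49.9, 64.0 and 64.0 CPM without and 62.6, 68.1 and 50.0 CPM with dTAG-13, above every mESC library.

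The genes of the cell surface and matrix differed in direction. Galnt7 was a weakly expressed gene in mESCs, at 5.60, 6.35 and 6.42 CPM in wild-type and 2.07, 2.34 and 2.26 CPM in knock-in libraries, which differed by -1.47 (SE 0.13). Wild-type dTAG-13 libraries had 4.62, 6.00 and 5.04 CPM. Both EB groups lay far above all mESCs, with 41.3, 50.7 and 39.7 CPM without and 40.8, 45.0 and 45.6 CPM with the compound. Smoc1 was at 10.4, 11.1 and 8.38 CPM in wild-type and 3.14, 3.06 and 3.11 CPM in knock-in mESCs, a difference of -1.70 (SE 0.14). It was at 9.17, 8.79 and 7.81 CPM in wild-type cells with dTAG-13, and at 5.86, 7.09 and 5.56 CPM and 6.49, 4.95 and 5.92 CPM in EBs without and with dTAG-13. The Smoc1 levels in EBs lay between those of the knock-in and the wild-type mESCs and overlapped neither. Bcam, the laminin receptor, was higher in the knock-in line, at 253, 246 and 234 CPM against 139, 137 and 136 CPM, with a difference of 0.82 (SE 0.07). The other Bcam values were 145, 143 and 159 CPM in wild-type cells with dTAG-13, 135, 101 and 121 CPM in EBs and 119, 119 and 180 CPM in dTAG-13 EBs. No library of another group reached the knock-in mESC range of Bcam.

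Kifc3, the minus-end motor, had 12.1, 12.5 and 11.8 CPM in wild-type and 3.76, 4.38 and 4.94 CPM in knock-in mESCs, a difference of -1.49 (SE 0.13). With dTAG-13, wild-type cells had 11.9, 12.6 and 12.9 CPM. EBs had 15.6, 14.4 and 10.9 CPM without dTAG-13 and 8.25, 6.22 and 9.23 CPM with it. Kifc3 in nontreated EBs overlapped the wild-type mESC range, while dTAG-13 EBs lay below it and above the knock-in mESCs. Pdzd4 had 71.6, 72.7 and 69.1 CPM in wild-type and 34.2, 30.0 and 28.4 CPM in knock-in mESCs, a difference of -1.22 (SE 0.09), and 63.2, 62.6 and 67.4 CPM in wild-type cells with dTAG-13. EBs had 162, 163 and 284 CPM without and 267, 245 and 235 CPM with dTAG-13. Library 3 of the nontreated EBs, which stands apart, was the highest of all Pdzd4 values.

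Among the transcription factors, Msc and Meis2 were higher and Myrf lower in the knock-in mESCs. Msc had 12.5, 10.5 and 12.02 CPM in wild-type, 14.2, 13.9 and 17.5 CPM in wild-type dTAG-13 and 30.9, 26.6 and 29.1 CPM in knock-in mESCs, and the lines differed by 1.30 (SE 0.10). In EBs Msc was at 2.04, 2.18 and 1.71 CPM without and 1.36, 0.773 and 0.993 CPM with dTAG-13. The 5 groups of Msc overlapped nowhere. Meis2 had 13.4, 17.1 and 13.2 CPM in wild-type, 15.5, 17.5 and 12.7 CPM in wild-type dTAG-13 and 35.3, 39.9 and 38.4 CPM in knock-in mESCs, a difference of 1.37 (SE 0.13). Meis2 in EBs, at 7.76, 14.8 and 8.10 CPM without and 7.41, 7.02 and 9.19 CPM with dTAG-13, reached into the wild-type range in 1 library. Myrf had 3.19, 4.89 and 3.48 CPM in wild-type, 3.17, 3.55 and 2.34 CPM in wild-type dTAG-13 and 0.575, 1.17 and 0.851 CPM in knock-in mESCs, a difference of -2.16 (SE 0.29) that rests on 66 counts over the 3 knock-in libraries. In EBs Myrf was at 98.7, 82.1 and 117 CPM without and 130, 143 and 88.3 CPM with dTAG-13. Per kilobase of exon, group means over all 10 genes and groups ran from 0.101 CPM for Myrf to 76.3 CPM for Bcam, both in the knock-in mESCs.

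**Figure D1:**
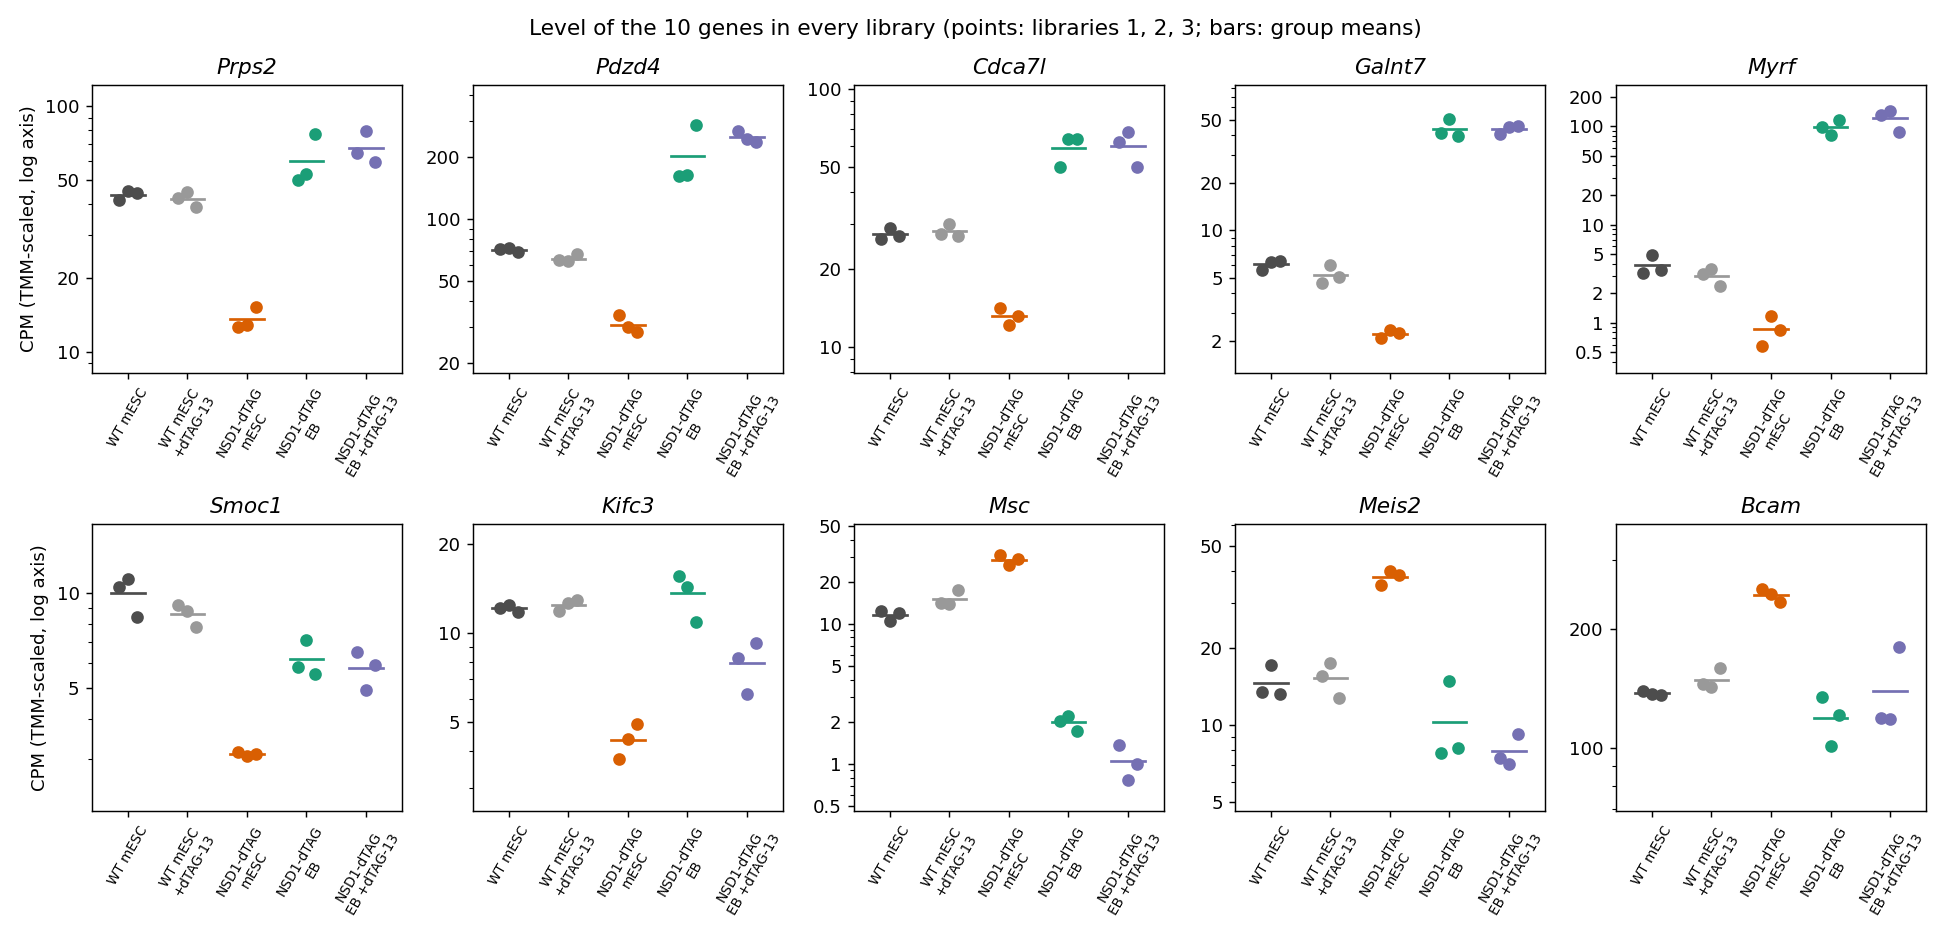
Level of the 10 genes in CPM (TMM-scaled, log axis, each panel with its own range) in every library of the 5 groups. Points are libraries and bars are group means of 3. The knock-in mESCs (orange) lie below or above the wild-type mESCs in every panel, and Galnt7 and Myrf show large steps up to the EBs.

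By the same fit over all genes, 259 of 13895 genes (1.86%) were called between nontreated NSD1-dTAG and wild-type mESCs, 76 higher (0.547%) and 183 lower (1.32%). All 10 genes are among them, 3 higher and 7 lower, as the choice of genes would have it. For the same reason none of the 10 overlapped between these groups, beside 20.9% of all genes, 9.05% higher and 11.9% lower. Nothing is read from these counts. The number of calls was 1248 without library 1 of the knock-in mESCs and between 1 and 12 with any other of the 6 libraries left out. The median of their log2 differences was -1.34, and that of all genes tested was 0.01. Without the libraries that stand apart the 10 log2 differences lay between -2.07 and 1.34. In bulk RNA, fewer cells that express a gene and less of its RNA per cell cannot be told apart. Exons of 6 of the 10 genes overlap exons of another gene on the opposite strand, and the counted strand is not stated. For 5 of the 6, such as Cdca7l with Dnah11, the partners had at most 328 counts over all 15 libraries. Kifc3 is the other one, and how reads were assigned there was not tested.

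The nearest expressed neighbours were compared in the same contrast to describe whether the differences extended along the chromosome. For each gene the 5 tested genes on either side were taken, 99 in all since Cdca7l lies near the end of its chromosome. Of these, 4 (4.04%) were called, all of them lower in the knock-in line, beside 1.32% of all genes called lower. A pair of them lay on the same side of Kifc3. These were Adgrg1 (-1.28, SE 0.17, adjusted p = 0.0231), an adhesion G protein-coupled receptor 85.6 kb away, and Ccdc102a (-0.81, SE 0.14, adjusted p = 0.0431). Adgrg5 on that side (-1.20, adjusted p = 0.165) and Mmp15 on the other (-1.06, adjusted p = 0.0597) were not called. At Kifc3 and at Bcam 9 of 10 neighbours had the sign of the gene itself, at Msc 8, and at the other genes 3 to 7. Rapgef5, an exchange factor for Rap GTPases 44.6 kb from Cdca7l, differed by -0.98 (SE 0.16, adjusted p = 0.0398). Gm21887, the fifth tested gene from Prps2 and 2627 kb away, differed by -0.91 (adjusted p = 0.0381). Beside the other 7 genes no neighbour was called, and the median absolute difference over the 99 neighbours was 0.14, against 0.13 over all genes. The nearest genes on either side differed by 0.23 (Tmsb4x) and -0.01 (Msl3) at Prps2, by 0.03 (Ssr4) and -0.66 (Arhgap4) at Pdzd4, and by 0.06 (Nectin2) and 0.34 (Cblc) at Bcam. At Myrf they differed by 0.18 (Tmem258) and -0.76 (Syt7), at Galnt7 by 0.01 (Hmgb2) and -0.78 (Mfap3l), and at Msc by 0.39 (Eya1) and 0.45 (Rpl5-ps1). At Meis2, Smoc1 and Kifc3 the nearest genes lay between -0.28 (Zfp319 by Kifc3) and 0.05 (Cox16 by Smoc1), and on the far side of Cdca7l Gm49602 differed by -0.61.

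**Figure D2:**
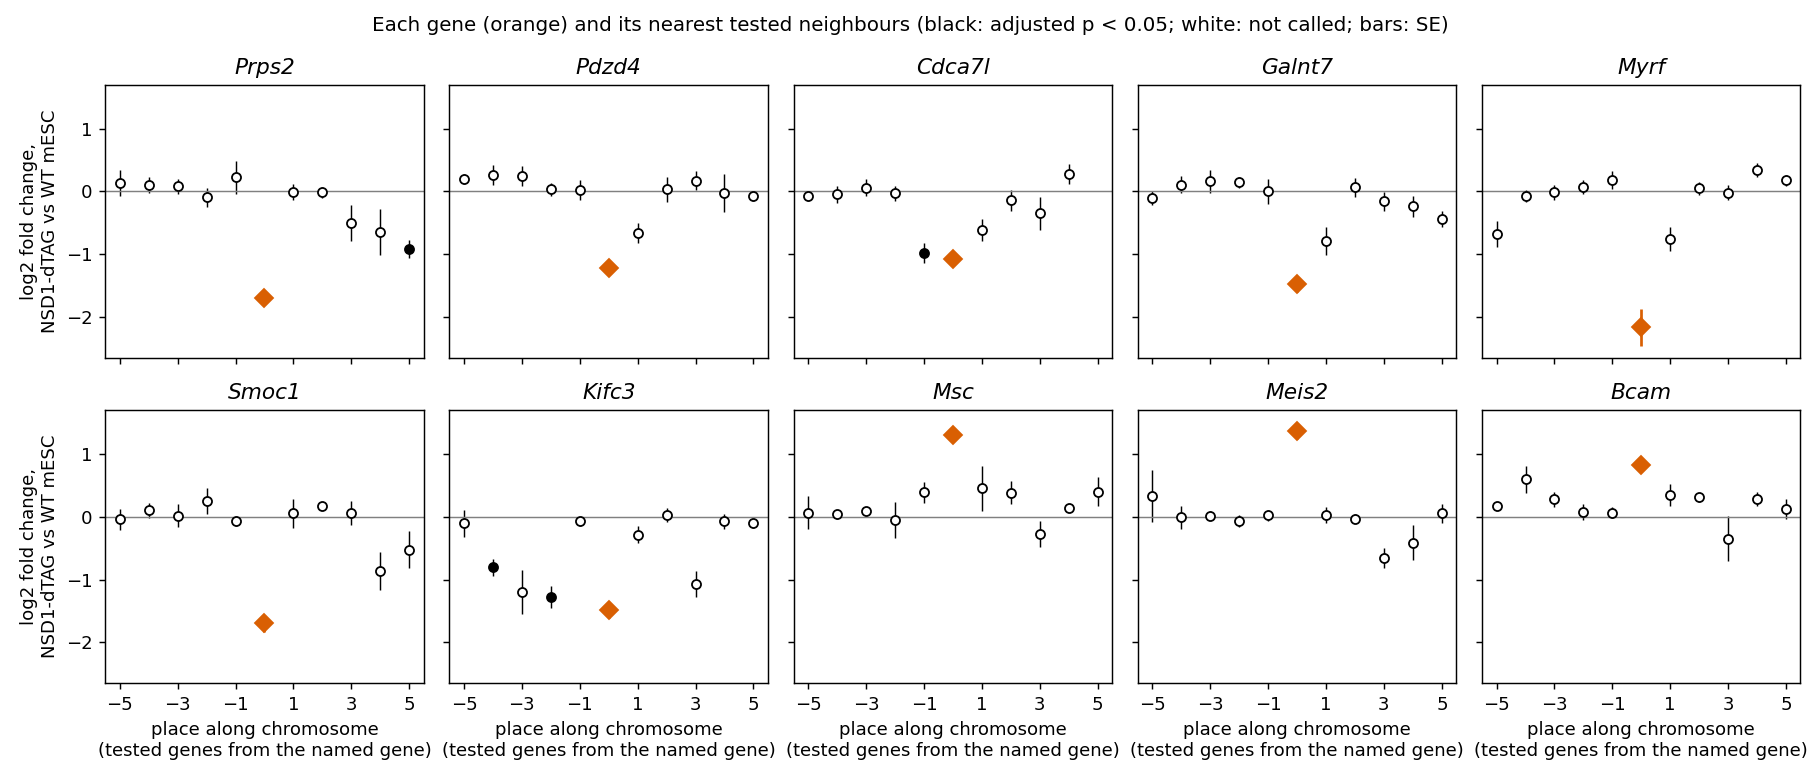
Log2 difference between nontreated NSD1-dTAG and wild-type mESCs for each gene (orange diamond) and the tested genes on either side of it in chromosome order. Bars are SE, black circles have an adjusted p under 0.05, and white circles were not called. Most neighbours sit near 0, and 4 of 99 were called, beside Kifc3, Cdca7l and Prps2.

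Wild-type mESCs with and without dTAG-13 were compared to see what the compound did where no tag was present. None of the 10 genes was called, and none of 13784 genes was (0.00%). DESeq2 also called 0. An unadjusted p under 0.05 was found for 229 genes in edgeR and 79 in DESeq2, a smaller share than the 0.05 awaited with no difference. Without the libraries that stand apart 16 of 13861 genes (0.115%) were called in edgeR, none of them among the 10. The differences of the 10 genes lay between -0.35 (Myrf) and 0.37 (Msc), each with an adjusted p of 1. In 3 genes the libraries did not overlap between the groups, beside 6.30% of all genes. Msc and Bcam were the higher ones with dTAG-13, beside 3.31% of all genes, and Pdzd4 the lower one, beside 2.99%. The wild-type nontreated libraries are those against which the genes were chosen. The dTAG-13 libraries were not used for that choice, and set against them the knock-in mESCs overlapped in none of the 10 genes, beside 18.4% of all genes without overlap. The 7 lower genes stand beside 10.3% of all genes and the 3 higher ones beside 8.06%. This second count shares the knock-in libraries with the choice of genes and is given as a description.

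From knock-in mESCs to day 6 EBs of the same line all 10 genes changed, 7 up and 3 down, in a comparison in which 9037 of 15193 genes (59.5%) were called, 33.1% up and 26.3% down. In all 10 the libraries of these groups did not overlap either, beside 67.4% of all genes, 36.2% higher and 31.2% lower. This comparison also shares the knock-in mESC libraries with the choice of genes, so a level picked as low or high there enters both. Myrf rose by 6.85 (SE 0.26, adjusted p = 7.25e-07) and Galnt7 by 4.32 (SE 0.16, adjusted p = 6.87e-07). Pdzd4 rose by 2.74 (SE 0.23, adjusted p = 2.51e-05), Cdca7l by 2.19 (SE 0.14, adjusted p = 5.27e-06) and Prps2 by 2.17 (SE 0.19, adjusted p = 2.72e-05). Kifc3 (1.66, SE 0.19, adjusted p = 1.33e-04) and Smoc1 (1.01, SE 0.17, adjusted p = 0.00104) rose by smaller amounts. The genes that fell were Msc (-3.84, SE 0.15, adjusted p = 8.01e-07), Meis2 (-1.87, SE 0.25, adjusted p = 2.98e-04) and Bcam (-1.01, SE 0.13, adjusted p = 2.06e-04). The 7 genes that rose were those picked as low and the 3 that fell those picked as high, a direction that the choice favours. Each of the 10 was called under all 14 alternatives run for this comparison. These draw on the same knock-in mESC libraries and so are not independent of the choice. EB culture also differed in medium. Added spike-in RNA (ERCC) made up 0.292% to 0.496% of counts in the knock-in mESCs and 0 in the EBs. A difference in library preparation therefore cannot be told apart from stage. Between these groups 8 of 8 mesoderm and 8 of 8 extraembryonic endoderm markers rose. Mesoderm markers went from a sum of 38.1 to 41.9 CPM to 284 to 687 CPM and those of extraembryonic endoderm from 2.22 to 2.38 CPM to 349 to 434 CPM. The part of these cell types in the levels of the 10 genes was not tested.

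Set beside the wild-type mESCs, the EBs of the knock-in line did not come to one level. In 5 genes every nontreated EB library lay above every wild-type nontreated mESC library (Prps2, Pdzd4, Galnt7, Cdca7l and Myrf), beside 38.5% of all genes. In 3 genes every EB library lay below (Msc, Smoc1 and Bcam), beside 34.1% of all genes, and in Kifc3 and Meis2 the groups overlapped. The 8 genes without overlap stand beside 72.6% of all genes. The mean Myrf level in EBs was 25.8 times and that of Galnt7 7.17 times the wild-type mean, while Prps2 reached 1.38 times and Bcam 0.867 times. Smoc1 differed from the other 6 genes that were low in the knock-in mESCs, since its EB mean of 6.17 ± 0.81 CPM was below the wild-type mean of 9.97 ± 1.42 CPM (SD, n = 3). These levels set EBs of 1 line against stem cells of the other, so line, stage and any difference in library preparation cannot be told apart.

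The comparison of EBs with and without dTAG-13 shares no library with the choice of genes. It called 1030 of 15236 genes (6.76%), 606 higher (3.98%) and 424 lower (2.78%), and 1 of the 10 genes. That gene was Kifc3, which fell by 0.79 (SE 0.19, adjusted p = 0.0483), from 13.6 ± 2.42 to 7.90 ± 1.54 CPM (SD, n = 3). All its dTAG-13 EB libraries lay below all nontreated EB libraries. The call was close to the threshold. Without library 1 or 2 of either EB group between 182 and 395 genes were called. The call of Kifc3 was lost without library 1 (adjusted p = 0.144) or 2 (0.170) of the nontreated EBs and without library 1 (0.131) or 2 (0.135) of the dTAG-13 EBs. With the replicate number as a block, 1834 genes were called and Kifc3 kept its call (adjusted p = 0.0488). As above, the assignment of reads at Kifc3 exons that overlap another gene was not tested.

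The other 9 genes were not called with dTAG-13 in EBs. Msc was lower in all dTAG-13 libraries, at 1.04 ± 0.30 against 1.98 ± 0.24 CPM (-0.93, SE 0.26, adjusted p = 0.0765), on 86 and 170 counts per group. It passed the threshold in the fit of all 15 libraries (adjusted p = 0.00695). In 2 genes, Kifc3 and Msc, the libraries of the EB groups did not overlap, both lower, beside 27.0% of all genes, 14.4% higher and 12.7% lower. For Meis2 the difference was -0.38 (SE 0.26, adjusted p = 0.462) and for Pdzd4 0.29 (SE 0.22, adjusted p = 0.510). The remaining genes lay between -0.10 (Smoc1) and 0.27 (Myrf), with adjusted p from 0.490 to 0.980. The median over the 10 genes was 0.01, and the median of all genes tested was -0.01. Without the libraries that stand apart, which leaves 2 libraries a group, 4 of the 10 genes were called, in a setting in which 3233 of 15463 genes (20.9%) were called, 1652 higher and 1581 lower. Kifc3 was lower (-1.05, adjusted p = 0.00358), and Pdzd4 (0.66, adjusted p = 6.89e-04), Myrf (0.60, adjusted p = 0.00442) and Prps2 (0.48, adjusted p = 0.0129) were higher. Pdzd4 was also called when only library 3 of the nontreated EBs was left out (0.62, adjusted p = 0.0112).

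Cell type markers also differed between the EB groups. In dTAG-13 EBs 4 of the 10 pluripotency markers fell (Nanog, Klf4, Zfp42 and Esrrb). The summed level of the 10 went from 1712 to 1797 CPM to 1343 to 1441 CPM. Of 8 mesoderm markers 4 fell (Mesp1, Eomes, Hand1 and Msgn1), and their sum went from 284 to 687 CPM to 46.9 to 108 CPM. The sums of neural markers, at 198 to 274 CPM without and 225 to 291 CPM with dTAG-13, overlapped between the groups, and Pax6 was called lower. Fibroblast markers, at 18.7 to 34.0 and 20.4 to 36.4 CPM, also overlapped, with 0 called. Extraembryonic endoderm markers ranged from 349 to 434 CPM without and from 167 to 535 CPM with dTAG-13, and Foxa2 was called lower. Endothelial or blood markers ranged from 45.9 to 53.4 CPM without and from 47.5 to 66.0 CPM with dTAG-13. Of these, Tek was called higher and Cdh5 lower. The part of these markers' cells in the values of Kifc3 and Msc was not tested.

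The response to dTAG-13 in EBs was set against that in wild-type mESCs in 1 model of 12 libraries. The difference between the responses was called for 456 of 15855 genes (2.88%), 1.60% with a positive and 1.27% with a negative difference, and for 1 of the 10, Msc, at -1.31 (SE 0.26, adjusted p = 0.0175). Msc had been 0.37 higher with dTAG-13 in wild-type mESCs and lower in EBs (-0.93), neither of them called. With any 1 wild-type library left out between 202 and 274 genes were called, and without library 1 of the dTAG-13 EBs 260. The number was 238 without library 2 and 763 without library 3 of the nontreated EBs. The call of Msc was lost without library 2 of the wild-type nontreated mESCs (adjusted p = 0.0523) or library 2 of the nontreated EBs (adjusted p = 0.0535), and held in the other 18 of 20 alternatives. For Kifc3 the difference was -0.83 (SE 0.21, adjusted p = 0.0577). In the other genes it lay between -0.45 (Meis2) and 0.62 (Myrf), with adjusted p from 0.399 to 0.979. The model contains the wild-type nontreated libraries against which the genes were picked, so its calls of the 10 are not independent of that choice. Tag and cell stage differ between its arms, length of treatment may differ as well, and these cannot be told apart.

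**Figure D3:**
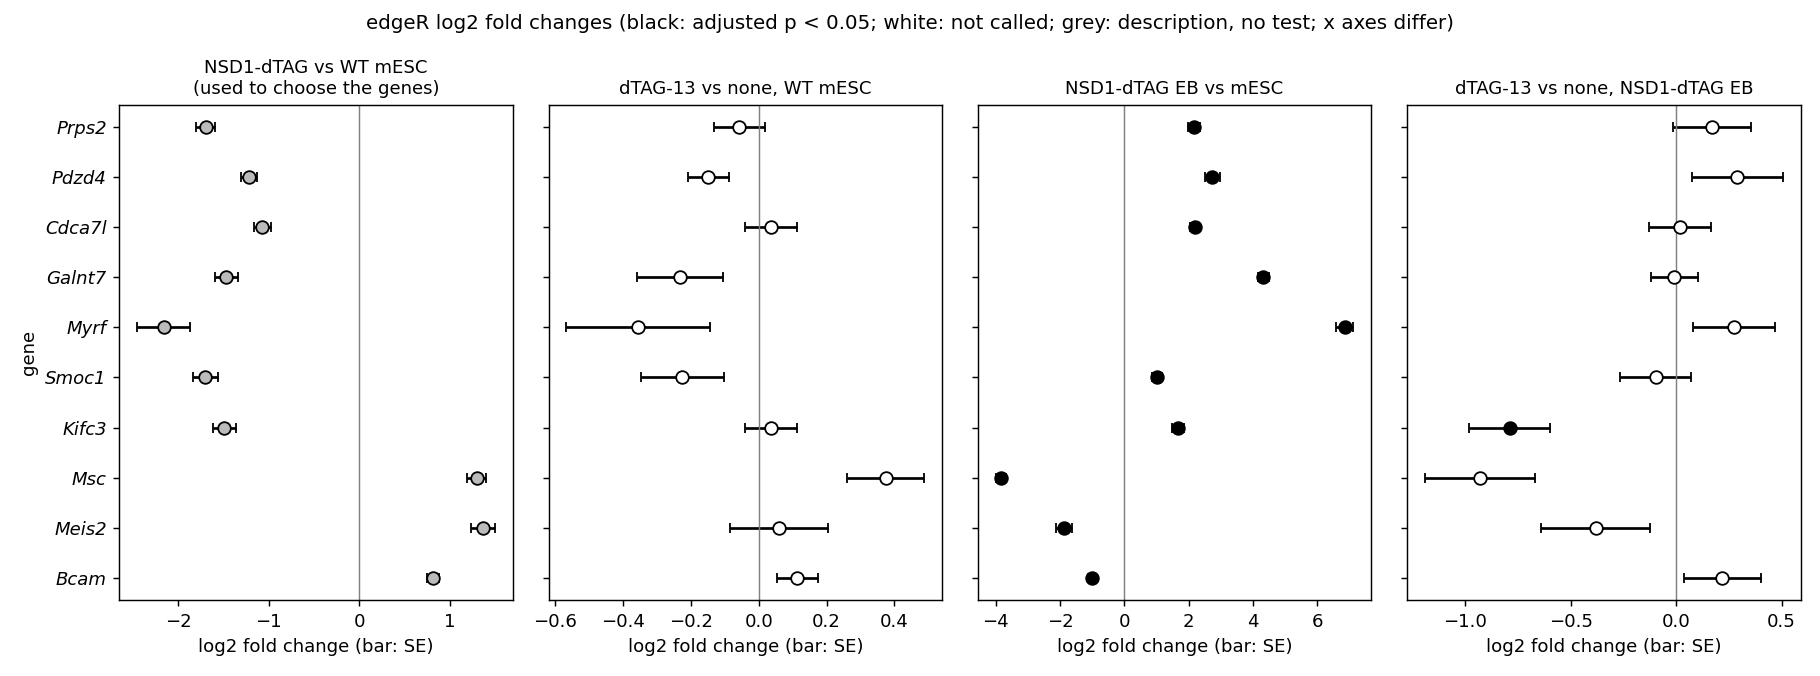
Log2 fold change of the 10 genes in 4 comparisons, with SE bars and a different x axis in each panel. Black points have an adjusted p under 0.05, white points were not called, and grey points are the contrast that chose the genes, shown with no test. All points are black from mESCs to EBs, none in wild-type cells with dTAG-13, and Kifc3 alone in EBs with dTAG-13.

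Relatives and partners of the 10 genes were taken from 10 lists, chosen with earlier results of these data known. From mESCs to EBs, the homeobox relatives of Meis2 (MEIS, PKNOX, PBX and TGIF genes and Irx3) rose in 8 of 11 tested and fell in 0. Pbx3 was at 3.88, Meis3 at 3.92 and Irx3 at 5.93 (from 0.0651 to 4.21 CPM), while Meis2 itself fell. Helix-loop-helix genes of the mesoderm, the class of Msc, rose in 7 of 8 and fell in 0, with Twist1 at 5.13. Mesp1 went from a mean of 0.0270 CPM, on 2 counts in 3 libraries, to 6.37 CPM, and Tcf23 from 0.0128 CPM, on 1 count, to 2.49 CPM. Msc, by contrast, fell. In the list around Galnt7, enzymes of mucin-type O-glycosylation, 10 of 14 rose and 1 fell. Galnt3 had the smallest p of this list and rose by 8.42 (SE 0.32), from 0.0651 CPM on 5 counts to 23.7 CPM, while Galnt10 rose by 1.88 and Galnt12 by 1.82. Of 5 matricellular relatives of Smoc1 4 rose, among them Spock2 (4.30), Fstl1 (1.01) and Smoc2, which went from 0.0411 CPM on 3 counts to 1.46 CPM. Of 5 genes of the oligodendrocyte list of Myrf 4 rose, with Mbp at 4.10 and Tmem98 at 2.00, which encodes a binding partner of Myrf.

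The other lists were mixed or went down. Of 7 genes around Cdca7l, Pcna and Ezh2 beside genes tied to maintenance of DNA methylation, 4 fell and 0 rose from mESCs to EBs. Uhrf1 was at -1.21, Dnmt1 at -0.71 and Pcna at -0.67, while Cdca7l rose. Of 7 genes around Prps2, Umps rose (0.79) and 3 fell, among them Ppat (-0.76), the enzyme that draws phosphoribosyl pyrophosphate into purine synthesis. The paralog Prps1, at 132 CPM in wild-type and 120 CPM in knock-in mESCs (-0.15, adjusted p = 0.402), was not called in any comparison. Among 7 adhesion genes around Bcam 3 rose and 3 fell, with L1cam at 3.99 and Cd47 at 2.44. Among 8 motor and microtubule minus-end genes around Kifc3 2 rose and 3 fell, with Nin at 1.36 and Kifc2 at -1.70. Among 7 PDZ genes around Pdzd4 3 rose and 1 fell, with Pdzd2 at 3.09, Pdzrn3 at 1.81 and Pdzrn4 at -1.01. The share of all genes called was 33.1% up and 26.3% down in this comparison.

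With dTAG-13 in EBs, 5 of 9 helix-loop-helix genes fell and 0 rose, beside 2.78% of all genes called lower. Twist1 fell by 1.89 (SE 0.23, adjusted p = 0.00683) and Mesp1 by 4.39 (SE 0.84, adjusted p = 0.0234), and Twist2, Hand1 and Mesp2 fell as well. Mesp1 and Hand1 are also among the mesoderm markers above. In the remaining lists at most 1 gene was called. Alcam fell in the list of Bcam (-2.39, adjusted p = 0.0133) and Galnt12 in that of Galnt7 (-0.85, adjusted p = 0.0170). Plekha7, which encodes a junction protein known to recruit Kifc3, rose (0.53, SE 0.08, adjusted p = 0.0107), whereas Kifc3 fell. Nkx2-2 rose in the list of Myrf (1.69, adjusted p = 0.0258) from 0.622 to 2.04 CPM. No relative of Meis2, Smoc1, Prps2, Cdca7l or Pdzd4 was called. The smallest p in these lists belonged to Pknox2 (-1.11, adjusted p = 0.133), Irx3 (-0.83, adjusted p = 0.245), Smoc2 (-1.39, adjusted p = 0.0787), Prps1l3 (-0.30, adjusted p = 0.0722) and Prps1 (-0.38, adjusted p = 0.157). For Ezh2 the value was -0.15 (adjusted p = 0.410), for Pcna -0.21 (adjusted p = 0.411), for Pdzrn4 0.86 (adjusted p = 0.250) and for Lnx1 -0.34 (adjusted p = 0.351). Between the nontreated lines, called relatives were Pknox2 (1.02, higher in the knock-in line), Galnt12 (-0.84), C1galt1 and Mcam, the last 3 lower.

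**Figure D4:**
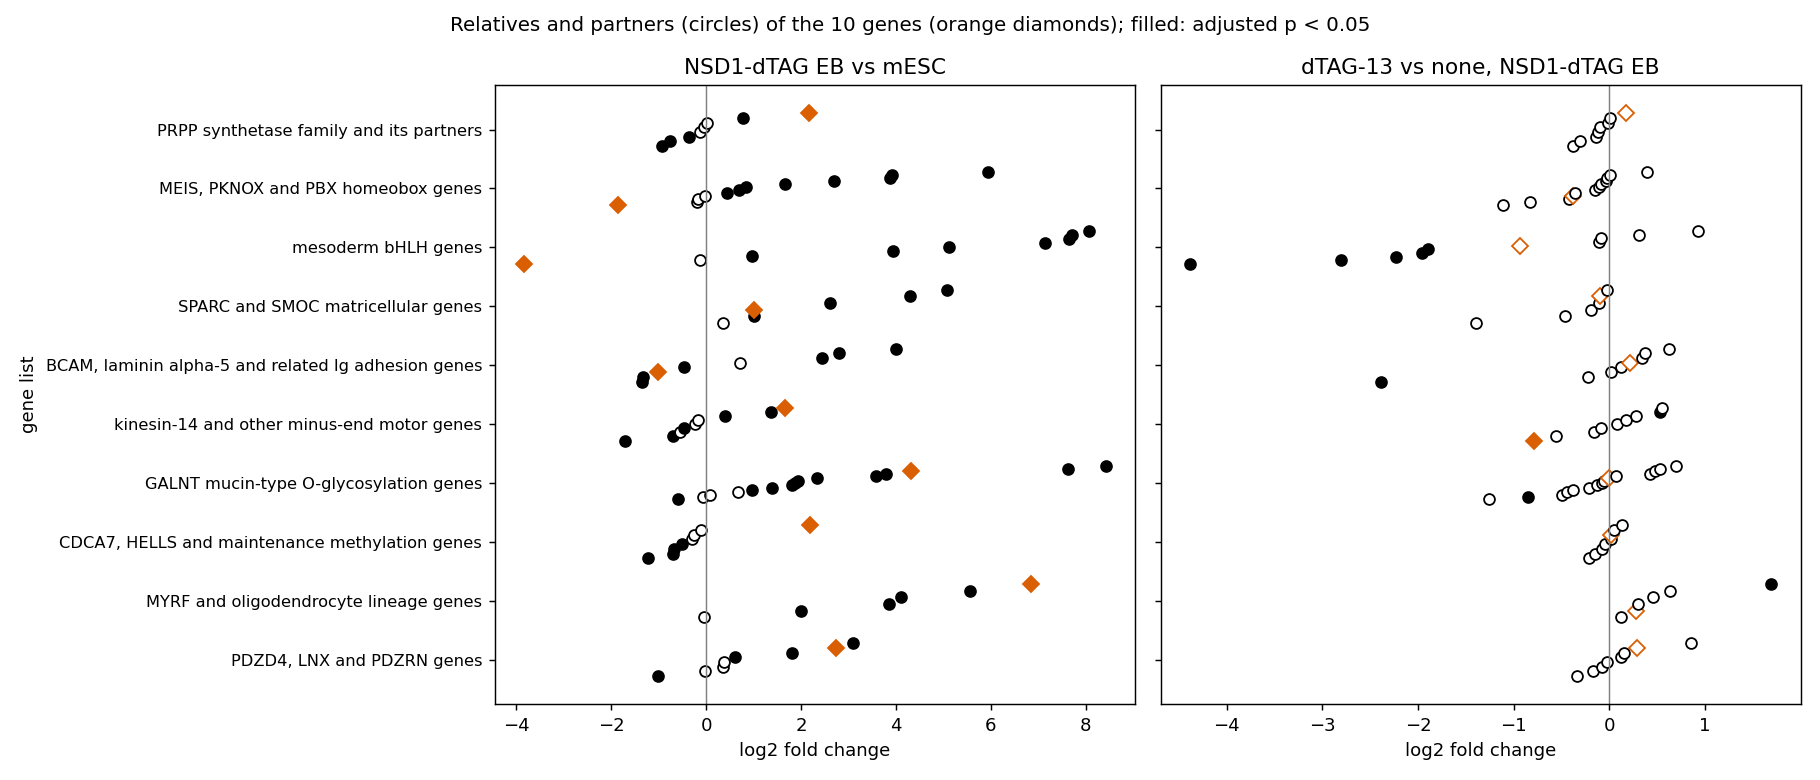
Log2 fold change of the tested genes of 10 lists (circles) and of the gene each list was built around (orange diamonds), from knock-in mESCs to EBs (left) and with dTAG-13 in EBs (right). Filled symbols have an adjusted p under 0.05. On the left Meis2 and Msc are the diamonds that lie below all genes of their list, and on the right filled circles gather in the helix-loop-helix list.

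The genes whose levels followed each of the 10 most closely over the 15 libraries were found by Pearson's r of log2(CPM + 1) among 16024 genes. The 15 points share 5 groups and 2 cell stages, so r is given as a description. Myrf was followed by Rapgef5 (r = 0.999), which is the called neighbour of Cdca7l on chromosome 12, and by Cgnl1 (0.997). Msc was followed by Mapt (0.996) and Hoxc4 (0.991), and Mapt like Msc was highest in knock-in mESCs, at means of 49.5 CPM against 23.0 CPM in wild-type and 2.51 CPM in EBs. Galnt7 was followed by Cd276 and Prom1 (both 0.996), Pdzd4 by Myef2 (0.988) and Bnip2 (0.987), and Cdca7l by Aspg (0.981) and Umps (0.978), the latter a gene of pyrimidine synthesis. Prps2 was followed by Klhl22 (0.959) and Sgpp1 (0.955), Bcam by Ckap4 (0.944) and Actb (0.920), and Meis2 by 4930550L24Rik (0.943) and Ecd (0.938). The lowest values were those of Smoc1, with Gne (0.917) and Mest (0.897), and of Kifc3, with Gldc (0.887) and Cnga3 (0.886). None of the 10 genes was among the closest 2 of another. The order depended on the measure. By Spearman's rank correlation only Mapt for Msc, Mest for Smoc1, and Ckap4 and Actb for Bcam were again among the closest 2. For Kifc3 and Gldc the rank correlation was 0.671.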

How the data were processed

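RNA-seq counts were analysed in 15 libraries of 5 groups, assigned from the sample labels. For every library the authors deposited a table of genes with their raw read counts. Per the labels' protocols, ERCC spike-in RNA was added, poly(A) RNA was selected and libraries were strand-specific. Tools named in the submitters' processing notes were STAR, bcl2fastq 2.20.0.422 and DESeq2 1.30.0, with mm10 and GRCm38.p6 as builds. Which strand was counted, and with which annotation release, is not given in the sources used here, so reads of genes that overlap on opposite strands cannot be told apart. Of 55471 gene IDs, 55230 matched GENCODE M21, which gave symbols and positions. The other 241 IDs took up 0.00196% of counts or less in each library. The 92 ERCC rows stayed out of library sizes and tests. ERCC made up 0.292% to 0.496% of counts in mESCs and 0 in EBs.

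The test was that of edgeR 4.0.16, run in R 4.3.3 (quasi-likelihood F test, TMM factors, filterByExpr, Benjamini-Hochberg adjustment over all genes tested, called at an adjusted p under 0.05). Only the groups being compared entered a fit, which for the difference between responses meant 12 libraries. The scripts were tested on simulated data. Tables and plots were made with matplotlib 3.10.9, numpy 2.4.6 and pandas 2.3.3 under Python 3.11.15. CPM were scaled with TMM factors over all 15 libraries. Alternatives were DESeq2 1.42.0, its size factors in edgeR, no count filter, 1 fit of all 15 libraries, the replicate number as a block, a gene-length offset, both together, ERCC library sizes (mESCs), and leaving out single libraries or those that stand apart.

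The 10 genes and all lists were chosen with earlier results of these data known. Named were the 10 genes, per list the 2 genes with the smallest p in each EB comparison, the 2 closest genes by Pearson's r, and the nearest tested neighbours. Called neighbours, the neighbours Adgrg5 and Mmp15, and called list members beyond these were named after their values were seen.

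Replicate numbers come from the labels. Same-numbered libraries deviated together from their group means, at correlations of 0.584, 0.289 and 0.285 between the nontreated mESC lines and at 0.228, 0.268 and 0.373 between the EB groups. The highest correlations with a different number were -0.322, 0.251 and 0.251 between the lines and 0.175, 0.175 and -0.212 between the EB groups. Each same-number value was above 0.1, the threshold set for using the block. The libraries that stand apart also share a number in these comparisons, and whether the numbers mark pairs was not tested. Libraries of a group were compared for duplicates by a chi-square over genes. The ratio to its degrees of freedom was lowest for libraries 1 and 2 of wild-type dTAG-13 mESCs (1.52). For libraries 2 and 3 it was 1.67 in wild-type nontreated and 2.17 in knock-in mESCs. Pairs with the remaining library of these 3 groups ran from 13.8 to 106, the highest of all. All ratios were above 1 and no pair was merged. How independent the closest pairs are was not tested. A gene that the values touch is not reported here.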

Additional observations from a re-analysis of the deposited data

Results flagged for a closer look

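Msc was flagged because dTAG-13 went with opposite differences in the tagged EBs and the untagged mESCs, and the difference between them was called. The responses differed by -1.31 on the log2 scale (edgeR, adjusted p = 0.0175), with -0.93 in EBs and 0.37 in wild-type mESCs. In each setting the 3 libraries with and the 3 without dTAG-13 did not overlap, but neither response was called alone. The value rests on 86 and 170 counts in the EB groups. It includes the wild-type nontreated libraries in which Msc was picked as low, which favours a rise with dTAG-13 there. The test is therefore not independent of the choice of genes. Tag and cell stage also differ between its arms and cannot be told apart.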

How the results depend on the processing

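For the nontreated lines 259 genes were called. The count was 636 with DESeq2, 500 in the fit of all 15 libraries, 650 with the gene-length offset, 3123 without the libraries that stand apart and 1 with ERCC library sizes, and 1 to 1248 with single libraries left out. ERCC library sizes moved the median of all genes from 0.01 to -0.10. The 10 chosen genes kept their direction in every alternative. All 10 were called except with ERCC library sizes (0) and with single libraries left out (0 to 10). For wild-type dTAG-13 mESCs 16 genes were called without the libraries that stand apart and 0 otherwise, and none of the 10 in any. For EBs with dTAG-13 the 1030 calls became 1686 with DESeq2, 1525 without the count filter, 1931 in the fit of all 15 libraries, 3233 without the libraries that stand apart and 182 to 1293 with single libraries left out. Of the 10 genes 1 was called (6.76% of all genes), against 2 in the fit of all 15 libraries (12.1%) and 4 without the libraries that stand apart (20.9%). With single libraries left out 0 to 2 were called, beside 1.17% to 8.27% of all genes. For the difference between responses the 456 calls became 799 with DESeq2, 915 without the count filter, 1897 without the libraries that stand apart and 202 to 763 with single libraries left out. Here 2 of the 10 genes were called with DESeq2 (5.04% of all genes), without the count filter (2.99%) or with the gene-length offset (3.85%). Without the libraries that stand apart 5 were called (Prps2, Pdzd4, Myrf, Kifc3 and Msc), beside 11.9% of all genes. With single libraries left out 0 to 3 were called, beside 1.24% to 4.7% of all genes. The causes were not tested. With single libraries left out a group has 2 libraries, and the spread is pooled over groups.

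With the replicate block, calls between the nontreated lines were 785, or 1388 with the gene-length offset as well. In EBs they were 1834 and 1818, and with both together 727 for the difference between responses. The block changed no call of the 10 genes. In the wild-type dTAG-13 comparison same-numbered libraries correlated at -0.288, 0.233 and -0.252, and from mESCs to EBs at -0.201, 0.127 and -0.268. In both comparisons the libraries that stand apart bear different numbers, and a shared number was not read as a pairing. From mESCs to EBs the calls stayed within 1.5 times of 9037 and all 10 genes were called throughout. Every one of these settings shares knock-in mESC libraries with the choice of genes.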
